A study of Solea senegalensis with 30 samples.

Results

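The miR-17 to miR-20 names and miR-25 are vertebrate microRNAs (miRNAs), short RNAs of about 22 nt that repress messenger RNAs. All miRNA names of the plasma count table numbered miR-17, miR-18, miR-19, miR-20, miR-25 or miR-363, of any letter or arm, were taken. The rule goes by names alone, though it was chosen with earlier results of these data known. The rule found 9 of 172 names and 61 of 2129 isomiRs, which are the distinct read sequences counted under a name, and no miR-363 name was among them. The names were miR-17a-5p, miR-18a, miR-19a-3p, miR-19a-5p, miR-19b-3p, miR-19d, miR-20a-5p, miR-25-3p and miR-25-5p.

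Plasma small RNA was sequenced from 30 adult Senegalese sole (Solea senegalensis) of a G1 broodstock, which are fish bred in captivity. The 16 kisspeptin fish had received KISS2 decapeptide, the core of a peptide that acts upstream of the reproductive hormones, by intramuscular injection at 250 µg/kg. The 14 control fish, labelled untreated, had received phosphate buffered saline in the study's methods. At 2 d after injection there were 5 kisspeptin and 5 control females and 6 kisspeptin and 4 control males. The other fish were 5 kisspeptin and 5 control males sampled at 4 d, and no females of 4 d were analysed. Each group of 1 treatment and 1 day came from its own tank, so neither treatment nor day can be told apart from tank. Fish are numbered within a group in the order of the sample list. Libraries were sequenced in 2 runs, and the run of each library is not given in the labels.

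In mammals, miR-17, miR-18, miR-19 and miR-20 are cut from one long transcript known for promoting cell proliferation and for its part in blood cell development. miR-25 comes from a related cluster. A miRNA finds its targets mainly through its seed, bases 2 to 8 from the 5′ end, so names with 1 seed are treated as a family. The 3p and 5p arms are the opposite strands of a hairpin, and usually one of them is kept while the other is degraded.

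The most abundant isomiR of each name is given here because the seeds sort the 9 names into families, with the seed in capitals and T written for U as in the deposited table.
miR-17a-5p: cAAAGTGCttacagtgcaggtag
miR-20a-5p: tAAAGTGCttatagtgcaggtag
miR-18a: tAAGGTGCatctagtgcaga
miR-19b-3p: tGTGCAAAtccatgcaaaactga
miR-19a-3p: tGTGCAAAtctatgcaaaactgat
miR-19d: tGTGCAAAcccatgcaaaactga
miR-19a-5p: gCTAGTTTtgcatagttgcact
miR-25-3p: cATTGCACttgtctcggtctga
miR-25-5p: aGGCGGAGacttgggcaattgct

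miR-17a-5p and miR-20a-5p shared the seed AAAGTGC and differed by C1T and C12T, counted from 1 at the 5′ end with the base of miR-17a-5p first. Over its 20 bases, miR-18a differed from miR-17a-5p at 6 positions, of which only A4G lies in the seed. The 3 names miR-19a-3p, miR-19b-3p and miR-19d shared GTGCAAA. Against miR-19b-3p, miR-19a-3p carried C11T and miR-19d carried T9C, both outside the seed. miR-25-3p, miR-25-5p and miR-19a-5p each had a seed of their own. Among the names in the count table, none outside the rule had a main isomiR with a seed of these 9 names. The table holds only a stretch of the alphabet of names, so the search could not find names beyond it. Seed sharing with such names was not tested. As background, miR-25-3p has the seed of the miR-92 family, and names of that family were not analysed here.

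Reads from near-identical names can be assigned to either one, and the sources used here do not say how such reads were split. Among the counted isomiRs, however, every one of miR-17a-5p and miR-20a-5p carried the base of its own name at the position of C12T. Each isomiR of miR-19a-3p, miR-19b-3p and miR-19d also carried its own name's bases where these names differ. The counted sequences can thus be told apart by name. Whether reads were lost or misread among these names was not tested.

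miR-25-3p made up most of the group. Its 9547 counts were 93.9% of the 10164 counts of the 9 names, and it ranked 26 of 172 names. The 9 names together held 0.425% of all counts in the 30 libraries, and miR-25-3p alone held 0.399%. This rank and these shares are within the count table, whose names run alphabetically only from miR-122-3p to miR-459. They are not a rank or shares among all miRNAs of plasma. It was counted in 27 libraries and was at 0 in 3.

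The other names were scarce. miR-25-5p, the opposite arm, had 213 counts in 23 libraries, so the 3p arm was 44.8 times as abundant. The 7 names of miR-17 to miR-20 had 404 counts together, 3.97% of the group. miR-19d led them with 175 counts in 18 libraries, followed by miR-20a-5p with 89 counts in 16 libraries. miR-19b-3p had 59 counts in 9 libraries, miR-18a 41 in 6 and miR-17a-5p 30 in 7. Both arms of miR-19a were near the limit of detection, with 5 counts in 2 libraries each.

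Below miR-20a-5p, the names miR-19b-3p, miR-18a and miR-17a-5p were each counted in fewer than 10 libraries. miR-19b-3p was counted in 1 fish of each group of 2 d, in 2 of 5 kisspeptin males and 3 of 5 control males of 4 d, and never above 11 counts. miR-18a was counted in 3 of 5 control females, 2 of 4 control males and 1 of 6 kisspeptin males of 2 d, with at most 14 counts. It was at 0 in all 5 kisspeptin females and in all 10 males of 4 d. miR-17a-5p was counted in 3 of 5 kisspeptin and 2 of 5 control females, at 0 in all 10 males of 2 d, and in 1 fish of each group at 4 d. No more than 12 counts of it were found in a library.

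**Figure D1:**
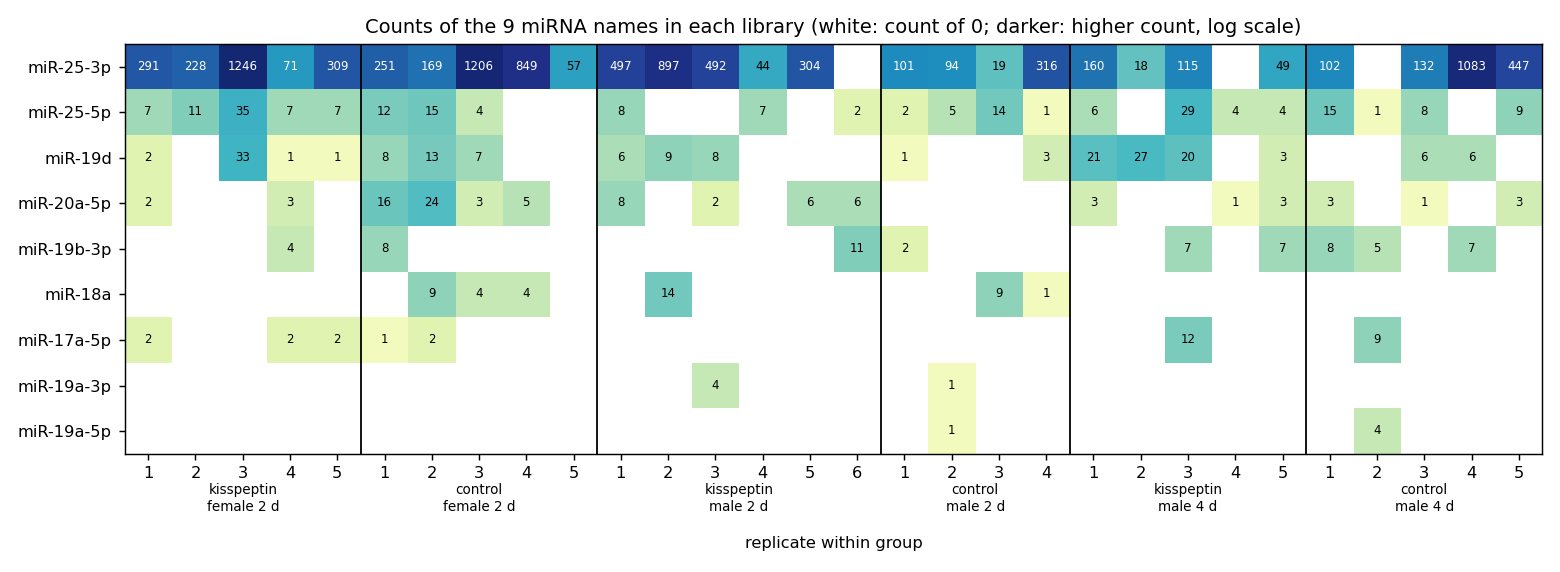
Counts of each of the 9 miRNA names (vertical axis) in each of the 30 libraries (horizontal axis, replicate within its group), with the count printed in the cell, darker cells for higher counts on a log scale and white for 0. miR-25-3p fills 27 of 30 columns, whereas miR-19a-3p and miR-19a-5p appear in 2 columns each.

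Between 1 and 6 of the 9 names were counted in a library. Each library had some count of the group, and 27 had a count of at least 1 of the miR-17 to miR-20 names. Library totals ran from 25468 to 191846 counts with a median of 60539, so a count of 0 allowed up to 15.6 cpm (counts per 1000000 counts of the library) in the deepest library and up to 118 cpm in the shallowest, taking 3 counts as the limit. These limits cover counting error only, and they hold only if the deposited table kept every isomiR counted in a library. The sources used here do not say whether it did, and the gaps among isomiRs described with miR-25-3p raise that doubt, under which a 0 bounds nothing and a summed level may be too low. Most values of the miR-17 to miR-20 names lie near them, and a 0 is not read as absence.

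Levels were ordered on the log2 cpm scale (prior count of 1, scaled library sizes) over the 30 fish. miR-25-3p stood at 10.75 ± 2.86 (SD, n = 30) and miR-25-5p at 6.09 ± 1.68. miR-19d followed at 5.45 ± 1.68 and miR-20a-5p at 4.98 ± 1.37. The gap below miR-25-3p was larger than either SD. The steps from miR-25-5p to miR-19d and from miR-19d to miR-20a-5p were smaller than the spread between fish. That spread does not decide their order, since all names were measured in the same fish, and the order within fish was not tested. Libraries at 0, which take a level set by the prior count, numbered 7 for miR-25-5p, 12 for miR-19d and 14 for miR-20a-5p.

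miR-25-3p varied widely between fish of the same group. Among the 25 names with higher counts, 3 had a larger SD of log2 cpm and none was at 0 in 3 or more libraries. In kisspeptin females the level was 6097, 2490, 9586, 1225 and 12133 cpm, and in control females 1308, 1033, 9667, 10077 and 1076 cpm. The groups of females overlapped almost completely, with fish near the lowest and near the highest of these values in both.

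In kisspeptin males of 2 d the lowest miR-25-3p level was 0, the median 8187 cpm and the highest 15699 cpm. Control males of 2 d had 2572, 1438, 635 and 7533 cpm. Of the 6 kisspeptin males, 4 lay above all 4 control males and another at 0 lay below them, so these groups overlapped as well.

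At 4 d, kisspeptin males had 1145, 437, 1105, 0 and 571 cpm of miR-25-3p. Control males of 4 d had 2147, 0, 1335, 8117 and 14257 cpm. Apart from the control fish at 0, every control male of 4 d lay above every kisspeptin male of that day. The share of all 9 names in a library followed miR-25-3p. It was lowest in kisspeptin males of 4 d, at 0.102% ± 0.0628 (SD, n = 5), and 0.545% ± 0.598 (SD, n = 5) in their controls. In the other groups its mean was 0.663% in kisspeptin females, 0.481% in control females, 0.718% in kisspeptin males of 2 d and 0.333% in control males of 2 d.

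**Figure D2:**
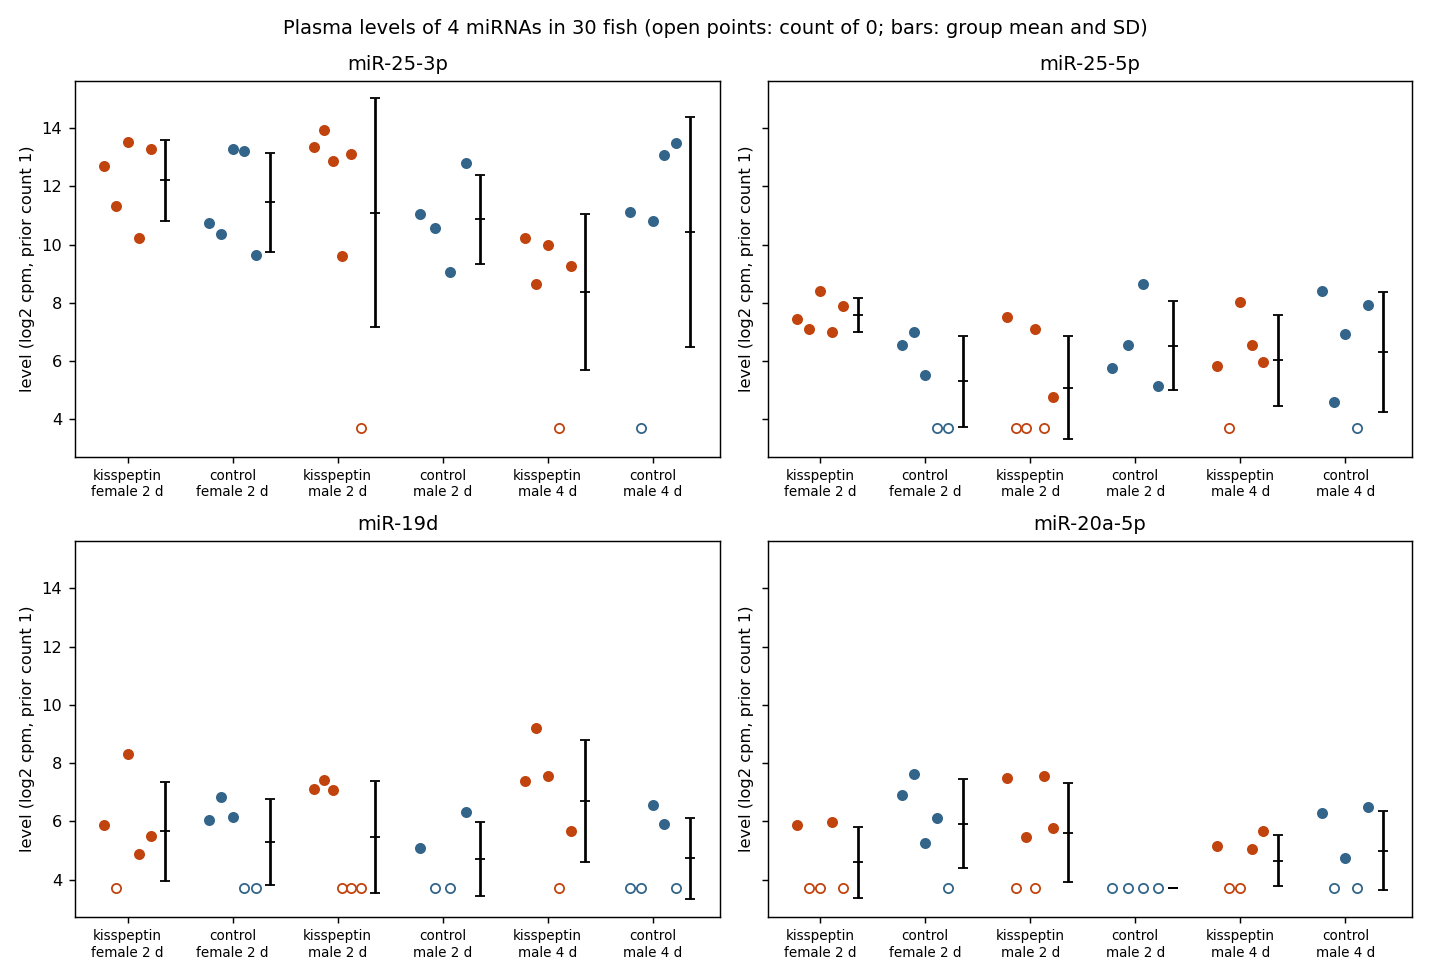
Levels of miR-25-3p, miR-25-5p, miR-19d and miR-20a-5p (log2 cpm with a prior count of 1) in each of the 30 fish by group, with filled points for counted libraries, open points for a count of 0 and bars for the group mean and SD. miR-25-3p is above the other 3 names in nearly all fish, and its 3 open points fall in kisspeptin males of 2 d, kisspeptin males of 4 d and control males of 4 d.

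The question of each treatment comparison was whether kisspeptin changed circulating miRNAs in that sex and day. Fold changes come from edgeR's quasi-likelihood test over all names with enough counts, with Benjamini-Hochberg adjusted p. The SE beside a fold change is approximate. It is the absolute log2 fold change divided by the square root of the test's F statistic. In females at 2 d, 7 of the 9 names passed the filter on low counts and none reached an adjusted p under 0.05 (both arms of miR-19a did not pass). The background was the same, 0 of 123 names called, or 0%. An unadjusted p under 0.05 was found for 11 of the 123 (8.94%) and for none of the 7. limma-voom and DESeq2 called no name either.

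miR-25-3p differed little on average between kisspeptin and control females, with a log2 fold change of 0.22 (SE 1.16, adjusted p = 0.937, edgeR). Its sign was not stable. It turned negative when any of 4 fish (kisspeptin female 3 or 5, control female 2 or 5) was left out, and was -0.40 without kisspeptin female 5.

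miR-25-5p was the member whose female groups did not overlap. Kisspeptin females had 7, 11, 35, 7 and 7 counts, or 147, 120, 269, 121 and 275 cpm. Control females had 12, 15, 4, 0 and 0 counts, or 62.6, 91.7, 32.1, 0 and 0 cpm. Every kisspeptin female lay above every control female in cpm, although control libraries 1 and 2 held more counts than 4 of the 5 kisspeptin libraries, out of totals of 191846 and 163635 counts. On the scaled log2 cpm the groups nearly touched, at 7.015 in kisspeptin female 4 and 7.014 in control female 2. Of the 123 names, 3 (2.44%) did not overlap between these groups. The log2 fold change was 1.94 (SE 1.46, adjusted p = 0.720, edgeR), which did not pass the test.

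Among the miR-17 to miR-20 names in females, miR-19d had 2, 0, 33, 1 and 1 counts in kisspeptin fish and 8, 13, 7, 0 and 0 in control fish. Its log2 fold change of 0.95 (SE 1.59, adjusted p = 0.819, edgeR) rested on the single kisspeptin fish with 33 counts, and without that fish it was -0.999. miR-20a-5p had 2, 0, 0, 3 and 0 counts against 16, 24, 3, 5 and 0, with a log2 fold change of -2.09 (SE 1.58, adjusted p = 0.720, edgeR). Control libraries 1 and 2 held most of its female counts and were the 2 deepest of all 30. The smallest adjusted p of a member in females was that of miR-18a, 0.495, with 0 counts in all 5 kisspeptin females and 9, 4 and 4 counts in 3 control females. It was singled out after its values were seen.

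In males at 2 d no member was called, beside 0 of 123 names (0%) by edgeR. Over all names, 10 of 123 (8.13%) had an unadjusted p under 0.05. Of the 7 members tested, 1 did, which was miR-20a-5p. Another, miR-17a-5p, was at 0 in all these fish and could not have had such a p. limma-voom called no name, and DESeq2 called 1 (0.813%), not a member.

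miR-20a-5p had 8, 0, 2, 0, 6 and 6 counts in the 6 kisspeptin males, with a lowest level of 0, a median of 34.9 cpm and a highest of 169 cpm. It was at 0 in all 4 control males, which allows up to 17.0 cpm over the 4 libraries together. Pooled over its libraries, the kisspeptin group had 52.4 cpm, 3.08 times that limit. Pooling ignores the spread between fish, so this ratio is a description and no bound. The limit itself holds only if the deposited table kept every isomiR counted. The 2 kisspeptin males at 0 overlapped with the controls, and in edgeR the unadjusted p was 0.0186 and the adjusted p 0.389. Its fitted fold change depends on the prior count and is no bound. Control males of 2 d were the only group without a count of it. Among the other controls, it was counted in 4 of 5 females, at 77.7 cpm pooled, and in 3 of 5 males of 4 d. Control males of 2 d differed from control females at an unadjusted p of 0.0148 (adjusted p = 0.326, edgeR). Against control males of 4 d the unadjusted p was 0.0467 (adjusted p = 0.655, edgeR).

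miR-25-3p had a log2 fold change of 1.45 (SE 1.25, adjusted p = 0.791, edgeR) in males at 2 d, in spite of the kisspeptin male at 0. With limma-voom the sign turned, to -1.28. miR-25-5p had 8, 0, 0, 7, 0 and 2 counts in kisspeptin males and 2, 5, 14 and 1 in control males. Its log2 fold change was -1.23 (SE 1.46, adjusted p = 0.796, edgeR), and 0.32 without control male 3, the fish with 14 counts. miR-19d had 6, 9, 8, 0, 0 and 0 counts against 1, 0, 0 and 3, with a log2 fold change of 1.63 (SE 1.77, adjusted p = 0.791, edgeR). Without control male 4, which had the highest miR-25-3p level and miR-19d count of its group, the values were 2.43 for miR-25-3p and 3.02 for miR-19d. No member's male groups of 2 d were separate, beside 1 of 123 names (0.813%).

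In males at 4 d, 5 members passed the filter (miR-25-3p, miR-25-5p, miR-19d, miR-20a-5p and miR-19b-3p) and none was called, beside 0 of 107 names (0%) by edgeR. An unadjusted p under 0.05 was found for 2 of the 107 (1.87%) and for no member. limma-voom and DESeq2 called no name.

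At 4 d the fitted differences of miR-25-3p and miR-19d were larger than those of the same names at 2 d, and their errors were large too. miR-25-3p had a log2 fold change of -2.86 (SE 1.49, adjusted p = 0.942, edgeR), with the cpm values given above. miR-19d had 21, 27, 20, 0 and 3 counts in kisspeptin males and 0, 0, 6, 6 and 0 in control males, with a log2 fold change of 3.05 (SE 1.63, adjusted p = 0.942, edgeR). The fish with 27 counts, kisspeptin male 2, reached 655 cpm in a library of 41197 counts. Without that fish the log2 fold change was 1.83, and with names summed by number it was 1.24.

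miR-25-5p at 4 d had 6, 0, 29, 4 and 4 counts in kisspeptin males and 15, 1, 8, 0 and 9 in control males. Its log2 fold change was -0.74 (SE 1.43, adjusted p = 0.982, edgeR) and 0.02 without control male 1. miR-20a-5p, at 3 counts or fewer in each fish of 4 d, had a log2 fold change of -0.76 (SE 1.47, adjusted p = 0.982, edgeR). No member's groups of 4 d were separate, beside 1 of 107 names (0.935%).

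**Figure D3:**
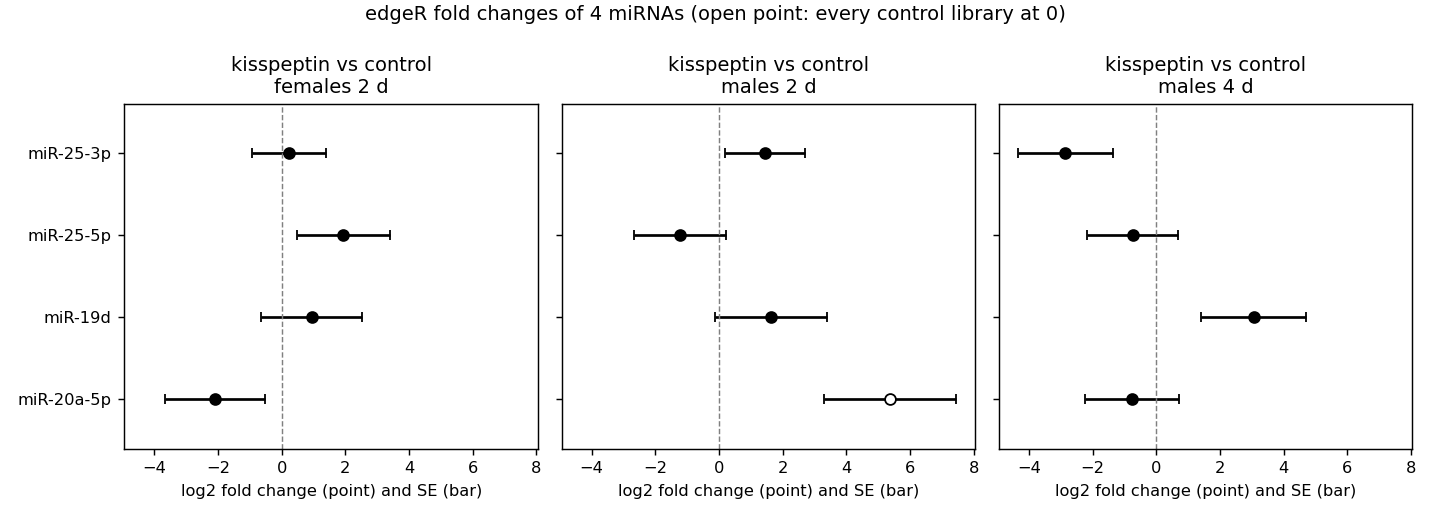
Log2 fold changes of kisspeptin over control fish (horizontal axis, edgeR) for 4 miRNAs in females at 2 d, males at 2 d and males at 4 d, with bars of 1 SE and an open point where every control library was at 0. None of the 12 passed an adjusted p of 0.05, and miR-25-3p runs from 0.22 in females to 1.45 and -2.86 in males of 2 d and 4 d.

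The kisspeptin effect on miR-25-3p was compared between sexes and days in the same fits. Between males and females at 2 d it differed by 1.23 on the log2 scale (SE 1.68, adjusted p = 0.843, edgeR), and between 4 d and 2 d in males by -4.28 (SE 2.13, adjusted p = 0.555, edgeR). edgeR called 0 of 123 names (0%) and 0 of 125 names (0%) in these comparisons, with 7 (5.69%) and 12 (9.6%) at an unadjusted p under 0.05. Of the 7 and 5 members tested, 1 and 1 had such a p, miR-20a-5p in both. Its unadjusted p was 0.00964 between sexes (adjusted p = 0.395, edgeR) and 0.0224 between days (adjusted p = 0.311, edgeR). Both comparisons take in the control males of 2 d, all at 0 for miR-20a-5p. limma-voom called 1 (0.813%) and 0 (0%) names and DESeq2 1 (0.813%) and 2 (1.6%), none of them a member. The difference of -4.28 turned to 0.44 when the main isomiR of every name was left out of its sum, an alternative chosen after seeing the data.

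Sex and day themselves gave no call for a member. miR-25-3p had a log2 difference of -1.16 (SE 1.26, adjusted p = 0.720, edgeR) from control females to control males and of 0.06 (SE 1.11, adjusted p = 0.994, edgeR) from kisspeptin females to kisspeptin males. From 2 d to 4 d it was 0.78 (SE 1.51, adjusted p = 0.874, edgeR) in control males and -3.49 (SE 1.52, adjusted p = 0.531, edgeR) in kisspeptin males. Without the main isomiRs that last value was 0.50. In each of these 4 comparisons edgeR called 0 names (0%), of 123 for sex and 125 for day, while 13 (10.6%), 10 (8.13%), 8 (6.4%) and 10 (8%) had an unadjusted p under 0.05. The members with such a p numbered 1, 2, 1 and 1. limma-voom called 1 name (0.813%) in control males against control females and 1 (0.8%) in kisspeptin males over time, and DESeq2 called 1 (0.8%) in the latter, none of them a member. No member's groups were separate in these comparisons, beside 4.07%, 0%, 4% and 0% of all names.

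Read as counts alone, 5 of the 7 members tested had a positive and 2 a negative fold change in females, with a median of 0.22 beside 0.04 over all 123 names. In males at 2 d, 4 were positive, 2 negative and miR-17a-5p, at 0 in all these fish, had no difference, with a median of 0.30 beside -0.10. With limma-voom 2 were positive and 5 negative, with a median of -0.48 beside -0.37. That count includes a sign for miR-17a-5p, although no count of it lies behind that sign. The median over all names also moved between the tools, from -0.10 to -0.37, so the balance of signs is not read further. At 4 d, 1 was positive and 4 negative, with a median of -0.76 beside 0.03 over 107 names. None of these had passed the test.

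The isomiRs of miR-25-3p are where the libraries differed most plainly. Its 19 isomiRs were all pieces or extensions of a single sequence with different ends. The 3 most abundant are shown because they share a start and a seed and lose bases only from the 3′ end, and the fourth because it has lost the first base.
miR-25-3p, 22 nt: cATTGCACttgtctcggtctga
miR-25-3p, 20 nt: cATTGCACttgtctcggtct
miR-25-3p, 21 nt: cATTGCACttgtctcggtctg
miR-25-3p, 21 nt without the first base: aTTGCACTtgtctcggtctga

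The 22 nt form, called full length here, had 7165 counts, 75.0% of miR-25-3p. The 20 nt form had 1281 (13.4%), the 21 nt form shortened at the 3′ end 550 (5.76%) and the 21 nt form without the first base 207 (2.17%). The last has another seed by position, and 94.8% of the counts carried the main seed, beside a median of 92.7% over the 58 names with at least 1000 counts. By length, 75.0% of miR-25-3p counts were of 22 nt and 15.2% of 20 nt, beside 53.6% and 6.92% over all names.

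In the deposited counts, full-length miR-25-3p was either the bulk of a library's miR-25-3p or at 0. It was counted in 12 libraries, where it made up 78.6% to 99.3% of the name, and was at 0 in 18. Of those 18, 15 had other miR-25-3p isomiRs, and 13 of them had at least 20 counts of these. Kisspeptin female 1 had 289 of its 291 counts as the full length, whereas control female 1 had 248 of its 251 as the 20 nt form.

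The total level moved with this form. Every library in which the full length was counted had at least 6097 cpm of miR-25-3p, and every library without it had at most 2572 cpm. Since the full-length counts are part of the total, this is a description of how the total was made up and is not a comparison of groups. Both the full length and the 20 nt form were counted in 4 libraries, the full length without the 20 nt form in 8, the 20 nt form without the full length in 10 and neither in 8. A library held a median of 2 miR-25-3p isomiRs (lowest 0, highest 7), and in 4 libraries a single isomiR made up the whole count.

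**Figure D4:**
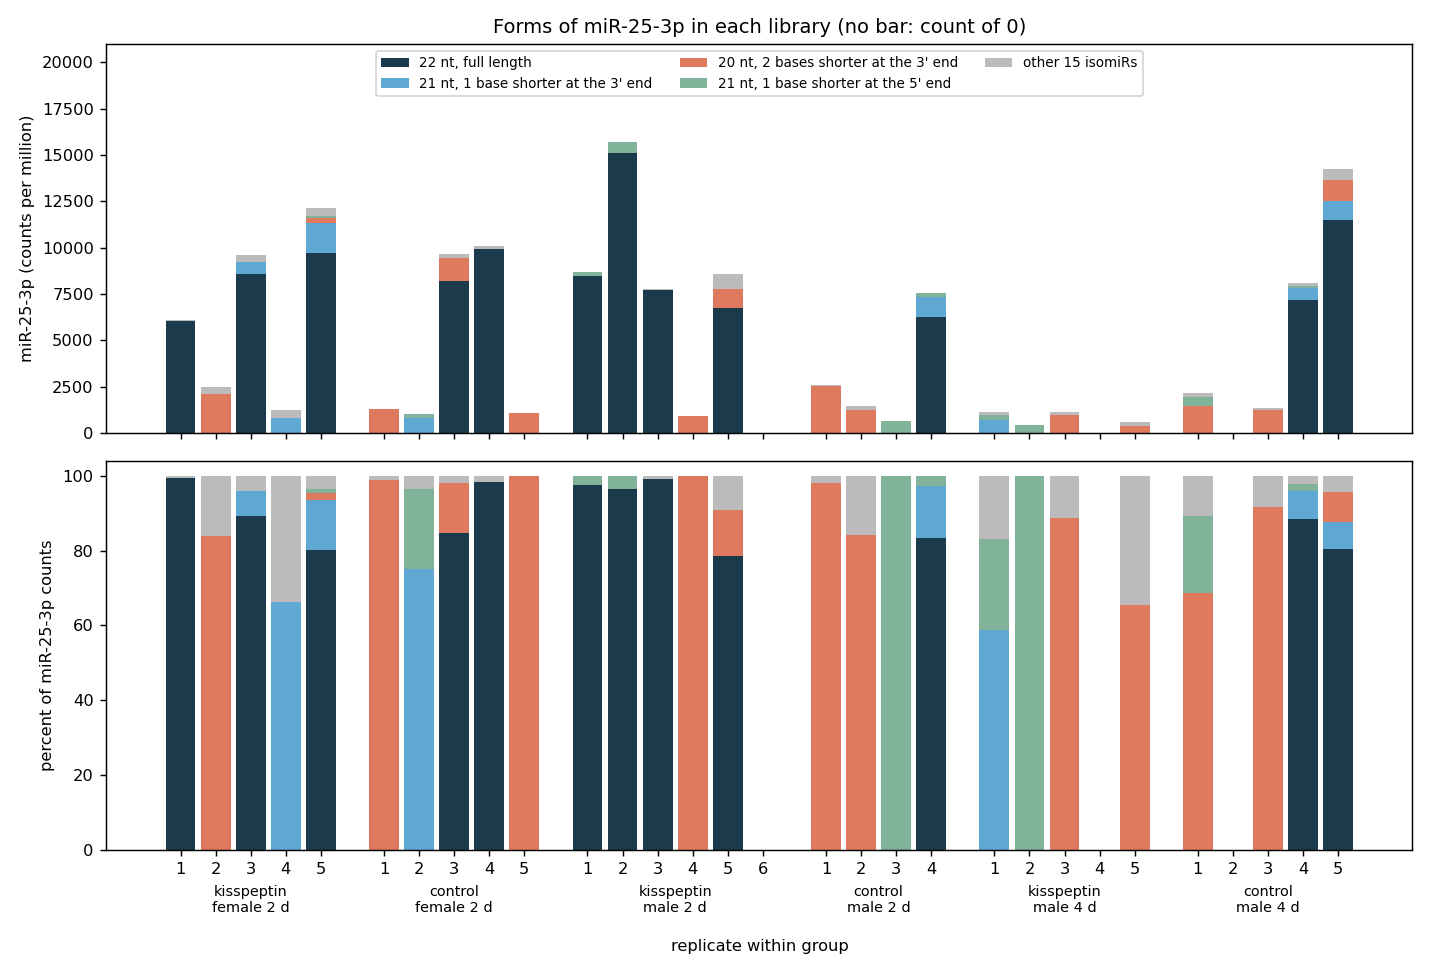
Forms of miR-25-3p in each library, as cpm (upper panel) and as percent of the miR-25-3p counts of the library (lower panel), by group and replicate. Dark bars of the full length appear in 12 libraries, each of at least 6097 cpm, and in none of the 5 kisspeptin males of 4 d.

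Over the groups, the full length was counted in 3 of 5 kisspeptin females, 2 of 5 control females, 4 of 6 kisspeptin males of 2 d and 1 of 4 control males of 2 d. None of the 5 kisspeptin males of 4 d had a count of it, while 2 of the 5 control males did, with 958 and 360 counts. Its percent of miR-25-3p was compared between groups of females, the only pair with at least 20 counts of the name in each fish. It was 53.8% ± 49.6 (SD, n = 5) in kisspeptin and 36.6% ± 50.4 (SD, n = 5) in control females, a difference of 17.2 percentage points (p = 0.683, adjusted p = 0.905 over 30 names, two-sided exact permutation test). None of the 30 names passed, and 1 had an unadjusted p under 0.05.

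Other names had such gaps too. Of the 58 names with at least 1000 counts, 44 had their main isomiR at 0 in 1 or more libraries. In 41 names this happened beside at least 20 counts of other isomiRs of the same name. In 14 names it happened in more than the 13 libraries found for miR-25-3p, and miR-26a led with 23. The main isomiR of miR-25-3p nevertheless held a larger share of its name than in 46 of the 58, whose median was 49.9%. Whether an isomiR at 0 was not sequenced or not kept in the table cannot be told apart here, and the levels of miR-25-3p, its shares and its fold changes are all subject to that.

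The scarcer names allow less to be said of gaps, since few of their libraries reach 20 counts. The main isomiR was at 0 beside at least 20 counts of other isomiRs in 2 libraries for miR-19d and in 0 for each of the other 7 names. For miR-25-5p the 3 leading isomiRs, which again differ at the 3′ end, held 68, 61 and 30 of 213 counts.
miR-25-5p, 23 nt: aGGCGGAGacttgggcaattgct
miR-25-5p, 22 nt: aGGCGGAGacttgggcaattgc
miR-25-5p, 21 nt: aGGCGGAGacttgggcaattg

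miR-19d had 69 counts of its 23 nt form in 9 libraries and 57 counts of the 22 nt form in 10. Another form, which starts 1 base later and so has another seed, had 27 counts, all in 1 library.
miR-19d, 23 nt: tGTGCAAAcccatgcaaaactga
miR-19d, 22 nt: tGTGCAAAcccatgcaaaactg
miR-19d, 22 nt without the first base: gTGCAAACccatgcaaaactga

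The main seed was carried by 73.7% of miR-19d counts, 85.4% of miR-20a-5p counts and 90.1% of miR-25-5p counts. In miR-17a-5p, miR-19a-3p, miR-19a-5p and miR-19b-3p all counts carried it, and in miR-18a 97.6% did.

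Single isomiRs of the members were tested among all isomiRs with enough counts. edgeR called 0 of 684 isomiRs (0%) in females, 0 of 684 (0%) in males at 2 d and 0 of 362 (0%) in males at 4 d, with 118 (17.3%), 72 (10.5%) and 15 (4.14%) at an unadjusted p under 0.05. Of the 10, 10 and 3 member isomiRs tested, 2, 2 and 0 had such a p. In males at 2 d, the main isomiRs of miR-19d and miR-25-5p are among the 10 but had a fitted log2 fold change of 0 and no SE. No difference was fitted for them, so they could not have had such a p. DESeq2 called 13 (1.9%), 13 (1.9%) and 2 (0.552%) isomiRs and limma-voom 0 (0%), 0 (0%) and 1 (0.276%), none of them a member.

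The smallest adjusted p of a member isomiR in females was 0.251, for the 22 nt form of miR-25-5p, with a log2 fold change of 4.28 (SE 1.72, edgeR). The next was 0.253, for the 22 nt form of miR-19d, with -4.14 (SE 1.69), whereas the 23 nt form of miR-19d had 2.05 (SE 1.74, adjusted p = 0.754). The 2 forms of miR-19d, which differ by the last base, thus had fitted changes of opposite sign in the same fish.

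Full-length miR-25-3p had a log2 fold change of 0.02 (SE 2.45, adjusted p = 1, edgeR) in females and 2.08 (SE 2.71, adjusted p = 0.962, edgeR) in males at 2 d. At 4 d it was in too few libraries to pass the filter. Without that filter, edgeR called it lower in kisspeptin males of 4 d (adjusted p = 4.78e-05), on 958 and 360 counts in 2 control fish against 0 in the other 8 fish, beside 24 of 1356 isomiRs (1.77%) called in that setting. The 21 nt form shortened at the 3′ end was called lower in kisspeptin males of 2 d in the same way (adjusted p = 0.0400), on 44 counts in 1 control fish, beside 20 of 1857 isomiRs (1.08%). In females, 26 of 1857 isomiRs (1.4%) were called without the filter, none of them a member. Both fitted fold changes are against a group at 0 and are no bounds.

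The 5 names whose levels ran most like miR-25-3p over the 30 libraries, of 135 compared, were miR-30d (Spearman's rho 0.60), miR-16a (0.35), miR-3963 (0.34), miR-125c (0.32) and miR-122-5p (0.30). Gaps of the main isomiR beside at least 20 counts of others were found in 20 libraries for miR-30d, 16 for miR-16a and 20 for miR-122-5p. The summed levels of these names are thus subject to such gaps, as is that of miR-25-3p, and their part in the correlations was not tested. The correlations are descriptions over 30 points that share library totals and groups. miR-19d was at 0.26, place 10. miR-25-5p, the other arm of the miR-25 hairpin, was at 0.05, place 50. In 27 libraries the 3p arm had more counts than the 5p arm, and the 3 libraries without a 3p count each had a 5p count. The totals of those 3 libraries ran from 49651 to 157656, so they were not the shallowest.

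Over all 30 libraries, listed markers of erythrocytes held 14.2% to 47.5% of the counts, of leukocytes 0.390% to 5.15%, of endothelium 1.83% to 12.5%, of muscle 0.157% to 15.3% and of liver 0.00761% to 20.4%. Plasma holds miRNAs from many tissues, and fewer cells of a type cannot be told apart from less RNA per cell. In females the muscle markers had a median of 3.72% in kisspeptin and 0.697% in control fish, and the leukocyte markers 2.43% and 0.821%. The erythrocyte medians were 26.3% and 24.5%. The endothelium medians, 3.77% and 5.19%, and the liver medians, 2.01% and 3.63%, were lower in kisspeptin females. In males at 2 d the muscle markers had a median of 10.8% in kisspeptin and 2.51% in control fish, and the erythrocyte markers 32.5% and 20.3%. The endothelium medians were 3.80% and 3.79%. The leukocyte medians, 1.68% and 1.93%, and the liver medians, 0.491% and 1.25%, were lower in kisspeptin males. At 4 d the muscle medians were 3.11% and 2.04%, and the erythrocyte medians 25.1% and 23.1%. The leukocyte (1.45% and 1.77%), endothelium (4.58% and 4.66%) and liver (0.721% and 1.67%) medians of 4 d were lower in kisspeptin males. Within each sex and day, the ranges of every list overlapped between treatments. The part of these markers in the values of miR-25-5p in females and of miR-25-3p and miR-20a-5p in males was not tested.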

How the data were processed

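Reads per isomiR were deposited by the authors as raw counts without normalization. In the study's methods, Cutadapt (2.8 there, 2.1 in the submitters' processing notes) cut off adapters and, at either end, 4 random bases. Bowtie2 (2.4.1) mapped reads to miRBase 21 hairpins of all species with k = 10, and a name found in several species was taken from the one with the highest expression. HTSeq 0.6.0 is listed with no role. In alphabetical order the first name is miR-122-3p and the last miR-459; others were not analysed here.

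The 30 columns were matched to the labels and isomiRs summed to names. cpm is a count per 1000000 counts of the library. Names with at least 1 cpm in at least 4 fitted libraries were tested with edgeR 4.0.16 (TMM, quasi-likelihood, R 4.3.3), the 20 libraries of 2 d as 4 groups, the 10 of males at 4 d alone and the 20 males together for days. Adjusted p used Benjamini-Hochberg over all names, threshold 0.05. Alternatives were limma-voom (limma 3.58.1), DESeq2 1.42.0, no scaling, other filters, other fits, names summed by number or seed, and each fish left out. Python 3.11.15 (numpy 2.4.6, scipy 1.17.1, pandas 2.3.3, matplotlib 3.10.9) did the rest. The edgeR step was run on simulated data to check the code. That run is not used here to judge what the tests could miss.

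Members, marker lists and tests were chosen with earlier results of these data known. All names of the rule are named. Values per fish and tests are given for those counted in at least 15 libraries, counts and ranges for the others (miR-18a in females is an exception chosen after its values were seen), and the 3 leading isomiRs for those with at least 1% of the group's counts. Markers were erythrocyte (miR-16, miR-144, miR-451, miR-486), leukocyte (miR-142, miR-150, miR-155, miR-223), endothelium (miR-126), muscle (miR-499, miR-206, miR-133, miR-1) and liver (miR-122). miR-486 and miR-499 were not analysed here. No pair of libraries of a group agreed within counting noise (61 pairs, chi-square per degree of freedom 95.1 to 654). Each library is 1 fish in the study's methods.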

Additional observations from a re-analysis of the deposited data

Results flagged for a closer look

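Among 30 sets of values (a name or share within a group), 2 held a fish far from the others. A nominal rate of 1 in 20 would give 1.5. Many of these sets hold counts of 0 at a shared floor, so that rate is no measure of chance here. Both flagged sets concern miR-25-3p at 4 d. Kisspeptin male 4 had a log2 cpm of 3.71 at a count of 0, and the other 4 fish of its group lay between 8.65 and 10.23. Control male 2 also had a log2 cpm of 3.71 at a count of 0, and the other 4 fish lay between 10.82 and 13.49. The value 3.71 is set by the prior count. Kisspeptin male 6 of 2 d, also at a miR-25-3p count of 0, was not flagged.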

How the results depend on the processing

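No member name or share passed an adjusted p of 0.05 under any alternative run. Without the filter on low counts, 2 isomiRs of miR-25-3p did. Only 18 member fold changes were followed over the alternatives. These were miR-25-3p, miR-25-5p, miR-19d and miR-20a-5p in the treatment comparisons, and miR-25-3p alone in those of sex, day and difference of effect. The smallest adjusted p among the 18 was 0.262. Signs were less stable, since 8 of the 18 reversed under an alternative with every fish and 5 of 18 when a fish was left out. The cause was not tested. With limma-voom, miR-25-3p turned to -1.28 in males at 2 d, -2.66 between kisspeptin males and females, -0.95 between days in control males and -1.90 for the difference between the sexes. Summed by seed, it turned to -0.18 between kisspeptin males and females. Without the main isomiR of each name, an alternative chosen after seeing the data, miR-19d in females was -4.19, and miR-25-3p was -1.14 in males at 2 d, 0.0711 between control males and females, -1.32 between kisspeptin males and females, 0.50 between days in kisspeptin males, -1.39 for the difference between the sexes and 0.44 for that between days. The seed share of miR-25-3p differed by -6.08 points in females, against 17.2 for the main isomiR. With a fish left out, the ranges were -0.40 to 0.91 for miR-25-3p in females, -0.23 to 0.63 for it between kisspeptin males and females, -0.999 to 1.51 for miR-19d in females, -2.33 to 0.32 for miR-25-5p in males at 2 d and -1.43 to 0.0233 for it at 4 d. Counts of called isomiRs, 0 in edgeR with the filter, were 13 (DESeq2) and 26 (no filter) in females, 13 and 20 in males at 2 d, and 1 (limma-voom), 2 and 24 in males at 4 d, and 0 to 1 in males at 2 d with a fish left out (1 without kisspeptin male 3). Counts of called names, 0 in edgeR, were 1 with DESeq2 in males at 2 d, 1 with limma-voom between control males and females, 1 with each tool between days in kisspeptin males, 1 with each for the difference between the sexes, and 2 with DESeq2 and 0 to 1 with a fish left out (1 without kisspeptin male 3 of 4 d) for that between days. No paired analysis was possible because replicate numbers follow accession order only. Of 54 levels and shares recomputed, 4 moved by more than the SD of their group. All 4 were mean log2 cpm values of miR-20a-5p, with a prior count of 0.25 or without scaling. Other names moved by less than the SD, such as miR-19d in control males of 4 d, from 4.72 to 3.44. Counts of 3 or fewer limit the miR-17 to miR-20 names.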
